A study of Mus musculus with 18 samples.

Results

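The antiviral interferon-stimulated genes are a set of 46 genes, listed by symbol, whose products sense, cut, hide or block viral nucleic acids and particles. Of the 46, 38 had a probe set of their own among the 12393 genes measured in mouse bone marrow macrophages, and each was represented by its probe set with the highest mean over 18 arrays. The other 8 listed symbols, Isg15, Oas1g, Ifi44, Rigi, Dtx3l, Xaf1, Herc6 and Ifi205, had no probe set annotated to them alone and were not analysed here as members. Signal decided which probe set stood for a gene, and differences between groups did not enter the rule. No filter on low signals was applied, and all 38 were followed through every group.

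There were 6 groups of 3 arrays. SPIO-LPS macrophages were exposed to 33 nm iron oxide particles for 24 h, were washed and then received LPS, the endotoxin of Escherichia coli O111:B4, at 10 ng/ml in fresh medium for 4 h. Silica-LPS macrophages had 50 nm amorphous silica in place of iron oxide, and LPS macrophages had medium without particles before the same challenge. SPIO and Silica macrophages had the same particle pretreatment followed by medium without LPS, and CON macrophages had medium only, with no times in their labels. The particle concentration is labelled 25 mg/ml, a unit that could not be checked. All cells came from the femurs of C57BL/6 mice of 4 to 6 weeks and were grown in medium conditioned by L929 fibroblasts. Replicates are labelled biological, with no word on whether they came from separate mice, so p-values measure the spread between cultures, which may be technical. The arrays measured RNA of whole cultures, in which fewer cells of a type and less RNA per cell cannot be told apart.

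Type I interferon binds its receptor IFNAR and, through the kinases JAK1 and TYK2, activates the factors STAT2 and IRF9, which act at interferon-stimulated response elements in the promoters of these genes. Macrophages keep a low constant interferon tone, and LPS, sensed by TLR4, adds a burst of interferon beta through the adaptor TRIF and the factor IRF3. The genes of the set are therefore read here in both states, resting and under LPS. Mx1 and Mx2 are special cases as background, since the RefSeq annotation (GRCm38.p6) lists both as transcribed pseudogenes. The Mx1 protein is not functional in most laboratory strains, C57BL/6 among them, so Mx1 RNA reports on induction and not on protection.

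Letters of the response element can be seen near the starts of several members. RefSeq promoter windows (GRCm38.p6, 250 bases before to 50 after a gene's start) matched 27 of the 38 measured members. The core letters of the element, GAAA repeated with any 2 bases between them, searched on both strands, occurred in 12 of these 27 genes (44.4%), against 1079 of 27025 genes with a window (3.99%). The 5 stretches shown here are the 160 bases that end just before the window's start site. The choice was made among members with a match. It took 4 genes that fell with iron oxide alone (Ifit3, Ifit1, Rsad2, Oas1a) and the only member called higher (Lgals9). Ifit2 and Oasl2, which fell by -1.21 and -1.19, had windows without these letters. Each stretch runs 5′ to 3′ on the gene's strand, and capitals mark the matched letters, which read TTTC where the match lies on the other strand.
Ifit3, chr19:34583369-34583528, plus strand: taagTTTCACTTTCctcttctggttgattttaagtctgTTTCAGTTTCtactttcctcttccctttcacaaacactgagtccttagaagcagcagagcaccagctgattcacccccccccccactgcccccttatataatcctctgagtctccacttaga
Ifit1, chr19:34640729-34640888, plus strand: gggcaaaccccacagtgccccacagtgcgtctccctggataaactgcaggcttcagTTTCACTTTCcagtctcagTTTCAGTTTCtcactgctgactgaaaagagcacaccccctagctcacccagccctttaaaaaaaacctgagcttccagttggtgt
Rsad2, chr12:26456453-26456612, minus strand: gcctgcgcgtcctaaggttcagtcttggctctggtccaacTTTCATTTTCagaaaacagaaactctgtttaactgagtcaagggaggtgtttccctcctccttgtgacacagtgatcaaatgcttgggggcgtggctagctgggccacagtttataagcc
Oas1a, chr5:120907526-120907685, minus strand: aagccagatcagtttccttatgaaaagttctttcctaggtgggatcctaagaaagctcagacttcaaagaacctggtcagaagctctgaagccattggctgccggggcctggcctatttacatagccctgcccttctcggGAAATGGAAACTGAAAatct
Lgals9, chr11:78984925-78985084, minus strand: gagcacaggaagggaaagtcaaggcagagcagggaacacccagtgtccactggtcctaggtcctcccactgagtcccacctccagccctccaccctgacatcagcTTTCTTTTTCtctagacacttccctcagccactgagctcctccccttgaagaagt
Ifit3 and Ifit1 each held a pair of matches, the first bases of which lay 156 and 122 bases upstream of the start in Ifit3 and 104 and 85 bases upstream in Ifit1. In Oas1a the matches overlapped and began 20 and 14 bases upstream. Rsad2 and Lgals9 held 1 match each, beginning 120 and 55 bases upstream. These distances are from the start the windows use, which is the gene's annotated 5′ end in Ifit1, Rsad2 and Lgals9. The RefSeq gene as a whole begins 410 bases further upstream in Ifit3 and 19 bases further upstream in Oas1a, so the Ifit3 stretch, and the end of the Oas1a stretch with nearly all of its matched letters, lie within the annotated gene. A match is a description of these letters and not evidence that a factor binds there, and genes without a match may hold the element elsewhere or in other letters.

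LPS raised every measured member. Against CON, 38 of 38 members were higher in LPS macrophages (limma, Benjamini-Hochberg adjusted p below 0.05 over all 12393 genes, the rule for every call here), against a background of 22.2% of all genes called higher and 36.1% called lower. The members' median difference was 3.23 on the log2 scale, against -0.01 over all genes. Mx1 had log2 signals of 12.79, 12.86 and 12.73 in LPS cultures, against 5.64, 5.89 and 5.53 in CON cultures, the widest gap of the set. Lgals3bp, with the narrowest, read 11.13, 11.11 and 11.17 in LPS, against 10.09, 10.07 and 9.98 in CON. The differences ran from 1.09 ± 0.042 for Lgals3bp (SE; 2.12-fold, adjusted p = 1.45e-12) to 7.11 ± 0.18 for Mx1 (138-fold, adjusted p = 6.67e-15). For all 38, no LPS array overlapped a CON array, and every call held when any 1 array was left out and under each other setting tried. The share of all genes without overlap is not given, here or below, so such counts only describe the members.

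After Mx1, the largest LPS responses were those of Ifit1, Cmpk2, Oasl1 and Usp18. Ifit1, which recognises RNA lacking host cap methylation, differed by 7.08 ± 0.12 (136-fold). Cmpk2, a nucleotide kinase, differed by 6.78 ± 0.18 (110-fold), and its chromosomal neighbour Rsad2 (viperin, which makes a chain-terminating nucleotide) by 5.51 ± 0.11. Rsad2 reached 14.26 ± 0.016 in LPS macrophages (SD, n = 3), close to the highest signals on the arrays, which lay between 14.48 and 14.62, so a further rise would be understated. Oasl1, a member of the oligoadenylate synthetase family with no synthetase activity, differed by 6.35 ± 0.12 (81.7-fold). Usp18, the protease that removes ISG15 and restrains the receptor, differed by 6.32 ± 0.097 (79.9-fold). At the other end stood Ifitm3, a membrane protein that blocks viral fusion (1.26 ± 0.055), and Trim25, a ubiquitin ligase acting on the RNA sensor RIG-I (1.23 ± 0.045). By role, the median differences were 5.37 for the 9 RNA-binding and nucleotide-acting effectors, 4.61 for the 2 genes of ISG15 conjugation, 3.49 for the 5 nucleic acid sensors, 3.35 for the 4 Mx and membrane genes, 2.92 for the 5 genes of the oligoadenylate synthetase family, 2.75 for the 8 PARP, TRIM and nuclear body genes, and 2.82 for the other 5.

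**Figure D1:**
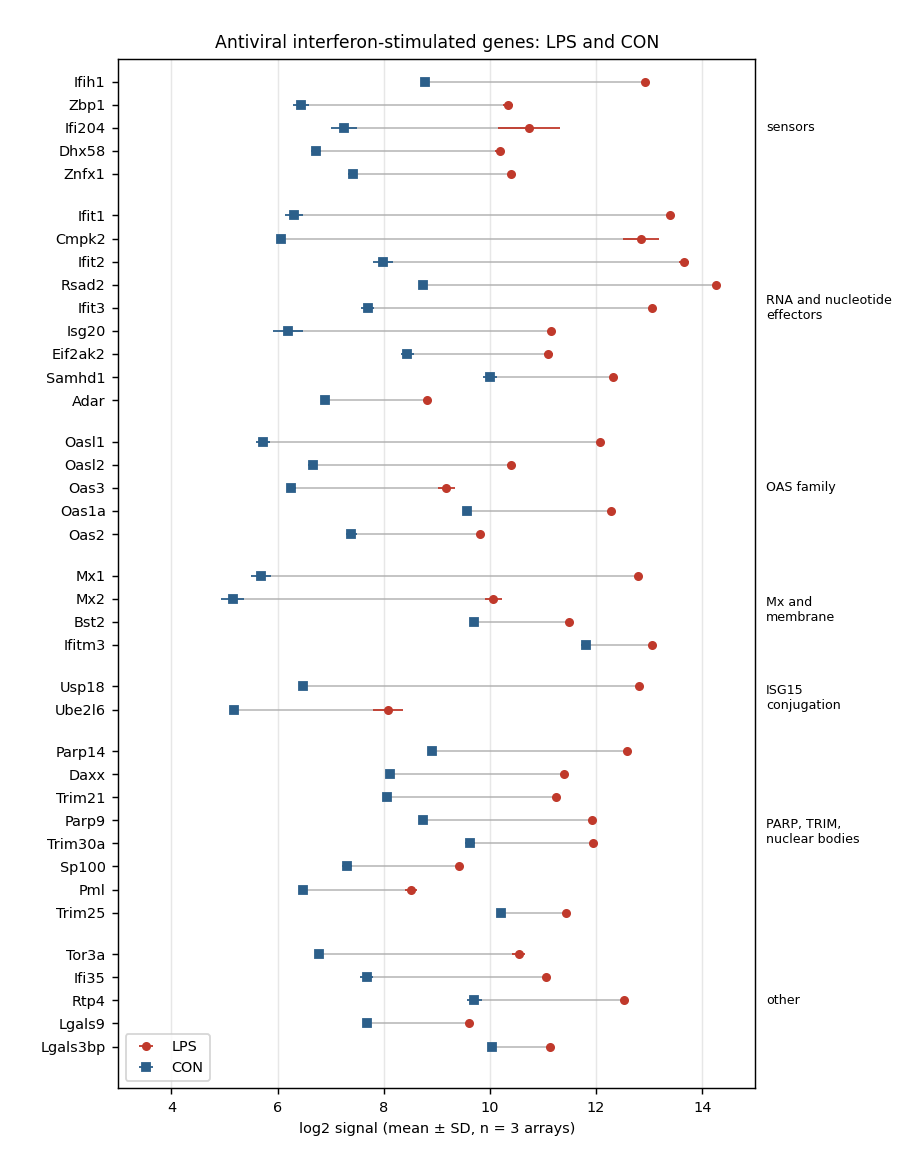
Mean log2 signal (horizontal axis, ± SD over 3 arrays) of the 38 measured genes in LPS (red circles) and CON (blue squares) macrophages, grouped by role. Every circle lies to the right of its square, by 1.09 for Lgals3bp up to 7.11 for Mx1; levels of different genes come from different probe sets and are not comparable with each other.

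Iron oxide alone lowered most of the set. In SPIO against CON, 24 of 38 members were lower, 1 was higher and 13 were not called, where 14.2% of all genes were called lower and 19.6% higher. The median difference of the members was -0.36, against -0.01 over all genes, and 34 of 38 differences were negative. For 23 of the 25 called members the SPIO and CON arrays did not overlap; the exceptions were Oas3 and Dhx58. The mean over the 38 members was 7.19 to 7.37 in the SPIO arrays, against 7.71 to 7.75 in the CON arrays.

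The deepest falls were in Mx1, Rtp4 and Ifit3. Mx1, a dynamin-like GTPase that traps influenza nucleoproteins, had log2 signals of 4.27, 4.66 and 3.81 in the SPIO cultures, against 5.64, 5.89 and 5.53 in the CON cultures. The SPIO mean of Mx1, 4.25, lay within the range of 4 B cell markers in SPIO (3.54 to 4.76). That is near the low end of the scale, where a fall would be understated. Rtp4, a receptor chaperone that also binds viral RNA, read 8.29, 8.55 and 8.27 with iron oxide, against 9.87, 9.63 and 9.62 in CON. Ifit3, whose human counterpart stabilises IFIT1 on RNA, read 6.33, 6.51 and 6.34 with iron oxide, against 7.77, 7.76 and 7.55 in CON. In all 3 genes each SPIO culture was below each CON culture. The differences were -1.44 ± 0.18 for Mx1 (2.71-fold lower, adjusted p = 1.35e-05), -1.34 ± 0.11 for Rtp4 (2.53-fold lower, adjusted p = 1.38e-07) and -1.30 ± 0.099 for Ifit3 (2.47-fold lower, adjusted p = 6.1e-08). The second probe set of Rtp4, of lower signal, gave -0.44 and was also called (adjusted over all probe sets, as for every second probe set below).

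The effectors that act on RNA and nucleotides fell in 7 of 9 cases. Ifit2, a relative of Ifit1 and Ifit3, read 6.78, 7.16 and 6.39 in SPIO, against 8.19, 7.94 and 7.83 in CON. It differed by -1.21 ± 0.15 (adjusted p = 1.07e-05), and Ifit1 by -0.97 ± 0.12. Rsad2 read 7.62, 7.92 and 7.42 in SPIO and 8.82, 8.68 and 8.74 in CON, with no overlap. Its difference was -1.10 ± 0.11 (adjusted p = 1.01e-06), and its other 2 probe sets gave -1.10 and -0.64, both called. Smaller falls were those of Cmpk2 (-0.69), Eif2ak2 (-0.50) and Samhd1 (-0.32), the last a phosphohydrolase that drains the nucleotides retroviruses need. The other probe sets of Cmpk2 and Eif2ak2 stood at -0.14 and 0.01 and were not called. Isg20, an exonuclease, and Adar, which edits double-stranded RNA, were not called, at -0.23 and 0.06.

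All 5 genes of the oligoadenylate synthetase family fell. The enzymes of this family make the second messenger that switches on RNase L. Oasl2 read 5.15, 5.97 and 5.29 in SPIO, against 6.75, 6.59 and 6.65 in CON. It differed by -1.19 ± 0.14 (adjusted p = 6.44e-06), its neighbour Oasl1 by -0.79, Oas3 by -0.51, Oas1a by -0.46 and Oas2 by -0.44. Of the sensors, 4 of 5 fell: Ifi204, a DNA-binding protein (-0.70 ± 0.24, adjusted p = 0.0319), Zbp1, which recognises Z-form nucleic acid (-0.61), Ifih1, the long double-stranded RNA sensor MDA5 (-0.37), and Dhx58, a regulator of RNA sensing (-0.20). The second probe set of Zbp1 gave -0.18 and those of Dhx58 -0.22 and 0.13, none of them called. Znfx1, a helicase that binds viral RNA, stood at -0.09 and was not called.

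At membranes, Ifitm3 fell. Its values were 10.83, 10.75 and 10.77 in SPIO and 11.88, 11.82 and 11.70 in CON, and the difference was -1.02 ± 0.055 (adjusted p = 1.63e-09). Bst2 (tetherin, which holds budding virions at the cell surface) differed by -0.24, and Mx2, at -0.36, was not called. Of ISG15 conjugation, Usp18 fell (-0.39) and Ube2l6, the conjugating enzyme, was not called (-0.18).

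The PARP, TRIM and nuclear body genes moved least. Parp14, an ADP-ribosyltransferase, fell (-0.28), as did Trim30a (-0.34). The other 6 of 8 were not called, and their differences lay close to 0: Parp9, a partner of the ubiquitin ligase DTX3L, at -0.02, Trim21, a cytosolic antibody receptor, at 0.01, Daxx, a histone chaperone, at -0.03, and Trim25 at 0.12. Pml, the scaffold of nuclear bodies, stood at -0.06, and Sp100, another nuclear body protein, at -0.08. The second probe set of Trim21 gave 0.31 and was called higher. The others of Trim25 gave 0.12 each, the brighter of them called. The median of the 8 was -0.05, against -0.69 for the 9 RNA and nucleotide effectors and -0.51 for the oligoadenylate synthetase family. Whether these role groups differ was not tested.

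Lgals9 (galectin 9, a secreted lectin) was the only member called higher on the probe set used. It read 7.92, 7.78 and 7.95 in SPIO, against 7.70, 7.62 and 7.72 in CON. The groups did not overlap, and the difference was 0.20 ± 0.053 (1.15-fold, adjusted p = 0.00807). Lgals3bp, a secreted binding partner of galectin 3, was lower in the same cultures (-0.51 ± 0.042). Tor3a, an ATPase of the endoplasmic reticulum (-0.05), and Ifi35 (-0.06) were not called. The second probe set of Tor3a gave 0.23 and was called higher (adjusted p = 0.0377).

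Of the 24 falls, 20 remained when any 1 array was left out, and the rise of Lgals9 remained too. Cmpk2 lost its call without SPIO array 3 (adjusted p = 0.0509). Ifi204 lost it without CON array 1, CON array 2 or SPIO array 3, with adjusted p up to 0.15. Oas3 and Dhx58 lost theirs without CON array 2 or 3 or SPIO array 1 or 3, with adjusted p up to 0.125 for Oas3 and 0.114 for Dhx58.

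**Figure D2:**
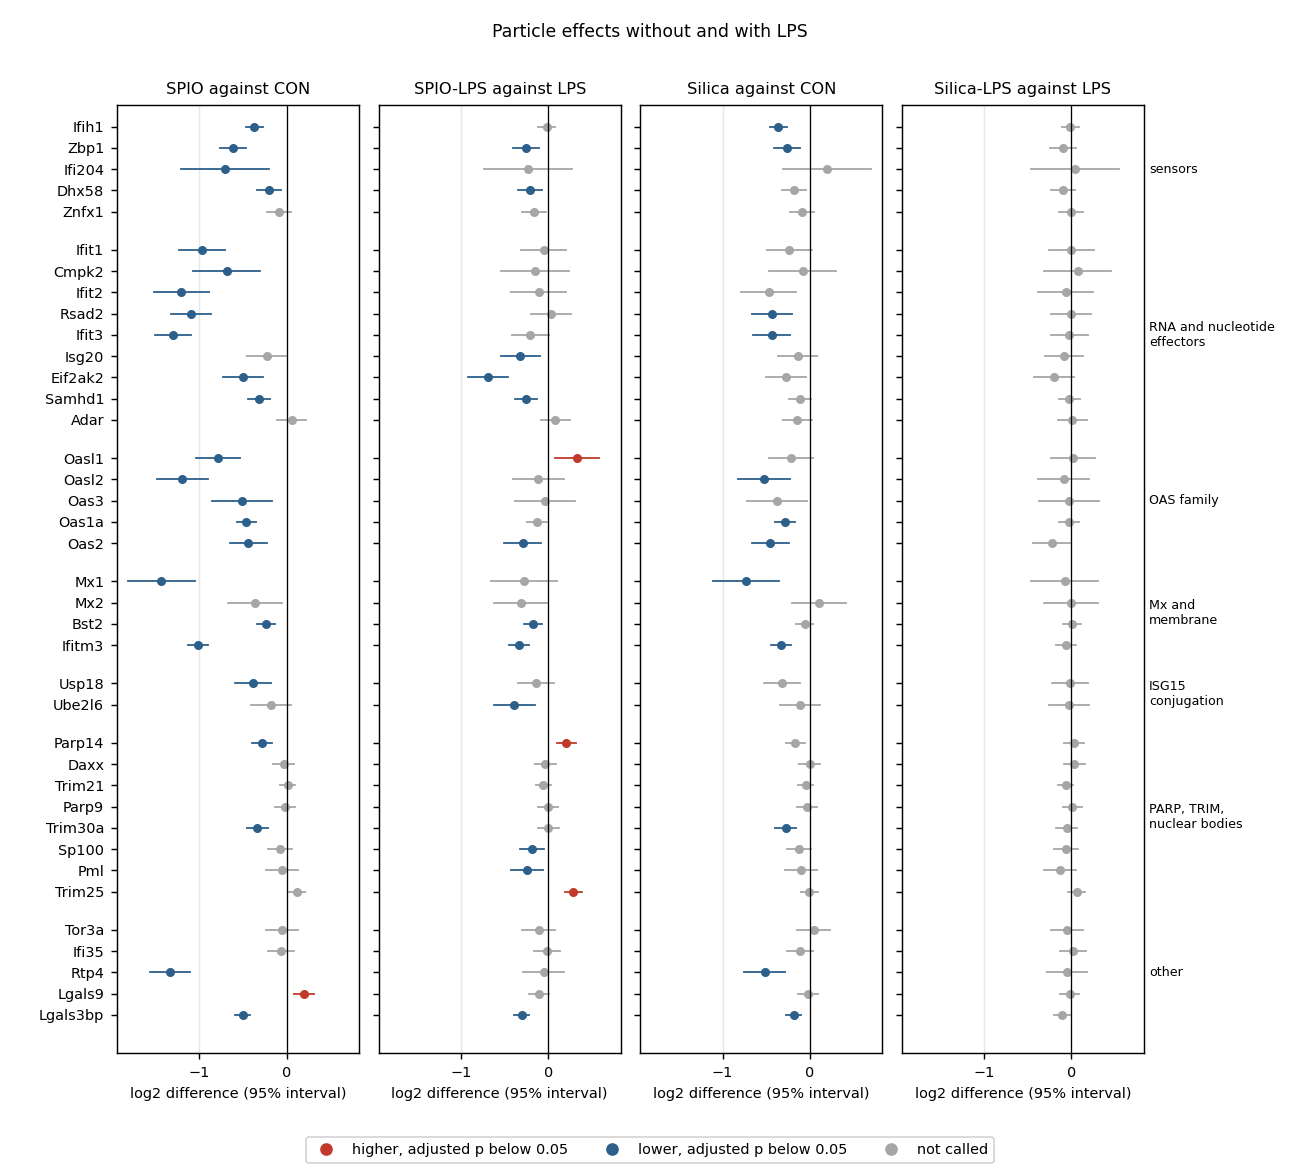
Log2 differences (points) with 95% intervals (lines) for the 38 genes in SPIO against CON, SPIO-LPS against LPS, Silica against CON and Silica-LPS against LPS, by role. Blue points were called lower, red points higher and grey points neither. The left panel holds 24 blue points and 1 red, the panel for SPIO-LPS 12 blue and 3 red, the silica panel 12 blue, and the right panel none.

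Under LPS iron oxide changed 15 members. In SPIO-LPS against LPS, 12 of 38 members were lower, 3 higher and 23 not called, where 14.6% of all genes were called lower and 18.2% higher. The median difference was -0.13, against 0.01 over all genes, and 32 of 38 differences were negative. Array means over the members were 11.17 to 11.25 in SPIO-LPS, against 11.30 to 11.35 in LPS. The Ifit genes, Rsad2, Rtp4 and Mx1 were not called: Ifit1 stood at -0.05, Ifit2 at -0.11, Ifit3 at -0.20, Rsad2 at 0.03, Rtp4 at -0.05 and Mx1 at -0.28. By role, 3 of 9 RNA and nucleotide effectors, 2 of 5 sensors, 2 of 4 Mx and membrane genes and 1 of 2 ISG15 conjugation genes were lower. Of the PARP, TRIM and nuclear body genes 2 of 8 were lower and 2 higher, and of the oligoadenylate synthetase family 1 of 5 was lower and 1 higher. The 95% interval for Rtp4 was -0.28 to 0.18, and that for Mx1 -0.66 to 0.11.

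Eif2ak2 (PKR, the kinase that stops translation on meeting double-stranded RNA) had the largest difference. It read 10.58, 10.50 and 10.17 in SPIO-LPS cultures, against 11.08, 11.03 and 11.19 in LPS cultures, with no overlap. The difference was -0.69 ± 0.11 (1.61-fold lower, adjusted p = 0.000122). A second Eif2ak2 probe set gave 0.02 in this comparison, so the probe sets of this gene disagree and its fall rests on 1 of 2. Samhd1, by contrast, was lower on all 4 of its probe sets. The one used read 12.04, 12.12 and 12.03 in SPIO-LPS, against 12.25, 12.35 and 12.34 in LPS. Its difference was -0.25 ± 0.058 (adjusted p = 0.00299), and the others gave -0.36, -0.47 and -0.53.

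Ifitm3 stayed lower under LPS. Its values were 12.67, 12.75 and 12.76 in SPIO-LPS and 13.06, 13.08 and 13.06 in LPS, a difference of -0.34 ± 0.055 (adjusted p = 0.000179). Lgals3bp was lower as well, at 10.80, 10.89 and 10.80 in SPIO-LPS, against 11.13, 11.11 and 11.17 in LPS (-0.30 ± 0.042, adjusted p = 3.35e-05). These 2 genes, Eif2ak2 and Samhd1 were the falls that remained when any 1 array was left out.

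The other falls were weaker. Ube2l6 differed by -0.39 ± 0.11 (adjusted p = 0.0119) with overlapping arrays, and lost its call without LPS array 1. Isg20 read 10.81, 10.89 and 10.80 in SPIO-LPS, against 11.11, 11.19 and 11.15 in LPS, a difference of -0.32 ± 0.10 (adjusted p = 0.0289). Oas2 (-0.29), Zbp1 (-0.25), Pml (-0.24), Dhx58 (-0.21), Sp100 (-0.19) and Bst2 (-0.18) made up the rest. The second probe set of Zbp1 gave -0.37 and was called, and those of Dhx58 gave -0.06 and -0.22 and were not. Bst2 lost its call without SPIO-LPS array 1, Zbp1 without LPS array 3, and Dhx58 without LPS array 3 or SPIO-LPS array 1 or 3. Isg20 and Pml lost theirs in 4 of the 6 omissions, Oas2 in 5 and Sp100 in 6. The count of falls was 6 without SPIO-LPS array 1 and 7 without LPS array 3.

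Trim25, Parp14 and Oasl1 were higher. Trim25 read 11.75, 11.74 and 11.70 in SPIO-LPS, against 11.38, 11.50 and 11.44 in LPS. The arrays did not overlap, and the difference was 0.29 ± 0.045 (1.22-fold, adjusted p = 0.000127). Its 2 other probe sets gave 0.27 and 0.25, the first of them called. Parp14 read 12.75, 12.88 and 12.77 in SPIO-LPS, against 12.59, 12.59 and 12.60 in LPS, and differed by 0.21 ± 0.052 (adjusted p = 0.00578). Oasl1 read 12.45, 12.44 and 12.35 in SPIO-LPS, against 12.02, 12.12 and 12.10 in LPS. Its difference was 0.33 ± 0.12 (adjusted p = 0.0435), and the call was lost whichever 1 array of these groups was left out.

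Across the 38 members, the iron oxide differences without LPS and under LPS had a Pearson correlation of 0.12 and a Spearman correlation of 0.20. The comparisons share no array, but they share the normalization and the probe sets, and the values are given as a description. The 8 genes lower in both were Bst2, Dhx58, Eif2ak2, Ifitm3, Lgals3bp, Oas2, Samhd1 and Zbp1, which are 33.3% of the 24 lower without LPS and 66.7% of the 12 lower under LPS. Isg20, Pml, Sp100 and Ube2l6 were called lower under LPS and not without it, and the interaction described next was called for none of these 4. Among the members the iron oxide difference without LPS also ran against the size of the LPS response measured in the silica cultures, which are other arrays, with a Pearson correlation of -0.57 and a Spearman correlation of -0.51.

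**Figure D3:**
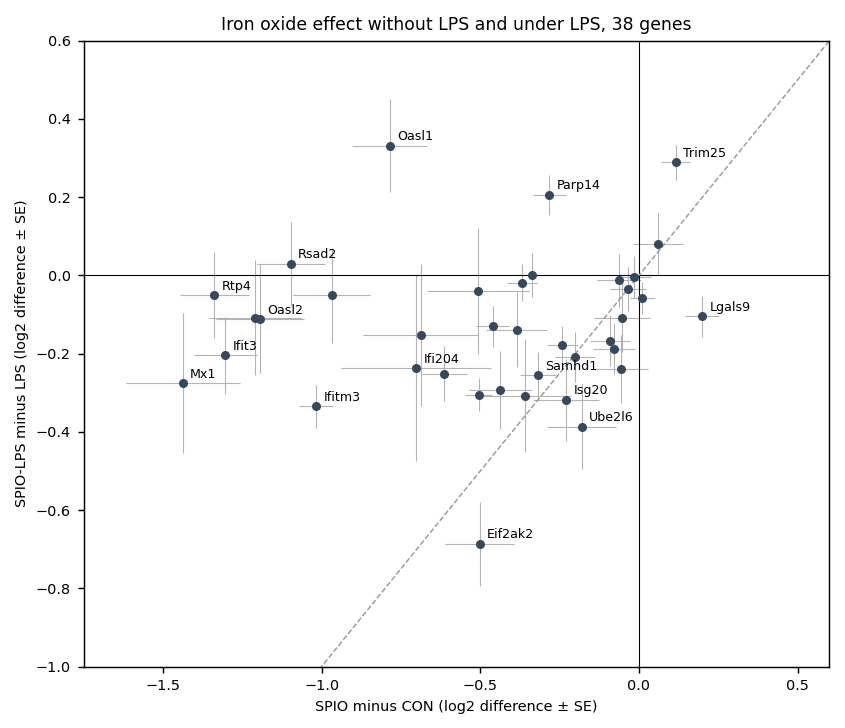
Each point is 1 of the 38 genes, with its log2 difference in SPIO minus CON on the horizontal axis and in SPIO-LPS minus LPS on the vertical axis (± SE); the dashed line marks equal differences. Rtp4, Mx1, Ifit3, Ifit2, Oasl2 and Rsad2 lie beyond -1 horizontally and between -0.28 and 0.03 vertically. Ifitm3 also lies beyond -1, at -1.02 and -0.34, and Eif2ak2, at -0.50 and -0.69, lies below the line.

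The interaction tests whether the iron oxide difference under LPS departed from that without LPS, or, in the same numbers, whether LPS raised a gene by more in iron oxide macrophages. It was called higher for 15 of 38 members and lower for 1, where 3.73% and 5.07% of all genes were called in those directions. The median was 0.19 for the members and 0.01 for all genes. This test contains the SPIO and CON arrays, so it is not a separate observation from the falls in SPIO against CON.

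Rtp4 had the largest interaction. With LPS it read 12.43, 12.49 and 12.50 in SPIO-LPS cultures, against 12.55, 12.53 and 12.49 in LPS cultures, and these overlap. LPS thus raised it by 4.10 in iron oxide macrophages, against 2.82 in macrophages without particles, an interaction of 1.29 ± 0.15 (adjusted p = 5e-05). Its second probe set gave 0.42, with an adjusted p of 0.0558. Mx1 read 12.46, 12.55 and 12.54 in SPIO-LPS and 12.79, 12.86 and 12.73 in LPS. Its LPS response was 8.27 with iron oxide, against 7.11 without, an interaction of 1.16 ± 0.25 (adjusted p = 0.00748). Both the response with iron oxide and the interaction use SPIO signals of Mx1 near the low end of the scale.

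Rsad2, Oasl1, the 3 Ifit genes and Oasl2 followed. Rsad2 read 14.28, 14.30 and 14.29 in SPIO-LPS, against 14.27, 14.24 and 14.27 in LPS, near the top of the scale. Its interaction was 1.13 ± 0.15 (adjusted p = 0.000148), while its 2 other probe sets gave 1.03, called, and 0.64, with an adjusted p of 0.202. Oasl1 had an LPS response of 7.47 with iron oxide, against 6.35 without (1.12 ± 0.17, adjusted p = 0.000397). The Ifit genes had interactions of 1.10 (Ifit2), 1.10 (Ifit3) and 0.92 (Ifit1), and Oasl2 one of 1.08. Ifitm3 (0.68), Parp14 (0.49), Zbp1 (0.36), Ifih1 (0.35), Trim30a (0.34), Oas1a (0.33) and Lgals3bp (0.20) completed the 15. Of these, 13 remained when any 1 array was left out. Zbp1 lost its call in 6 and Lgals3bp in 10 of the 12 omissions, with adjusted p up to 0.0876 and 0.118. The second probe set of Zbp1 had an interaction of -0.18, not called, against 0.36 on the one used.

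Lgals9 went the other way. LPS raised it by 1.63 in iron oxide macrophages, against 1.93 without particles, an interaction of -0.30 ± 0.074 (adjusted p = 0.0166). Without SPIO array 3 the interaction was -0.27 and was not called. In SPIO-LPS against LPS Lgals9 was not called (-0.10).

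**Figure D4:**
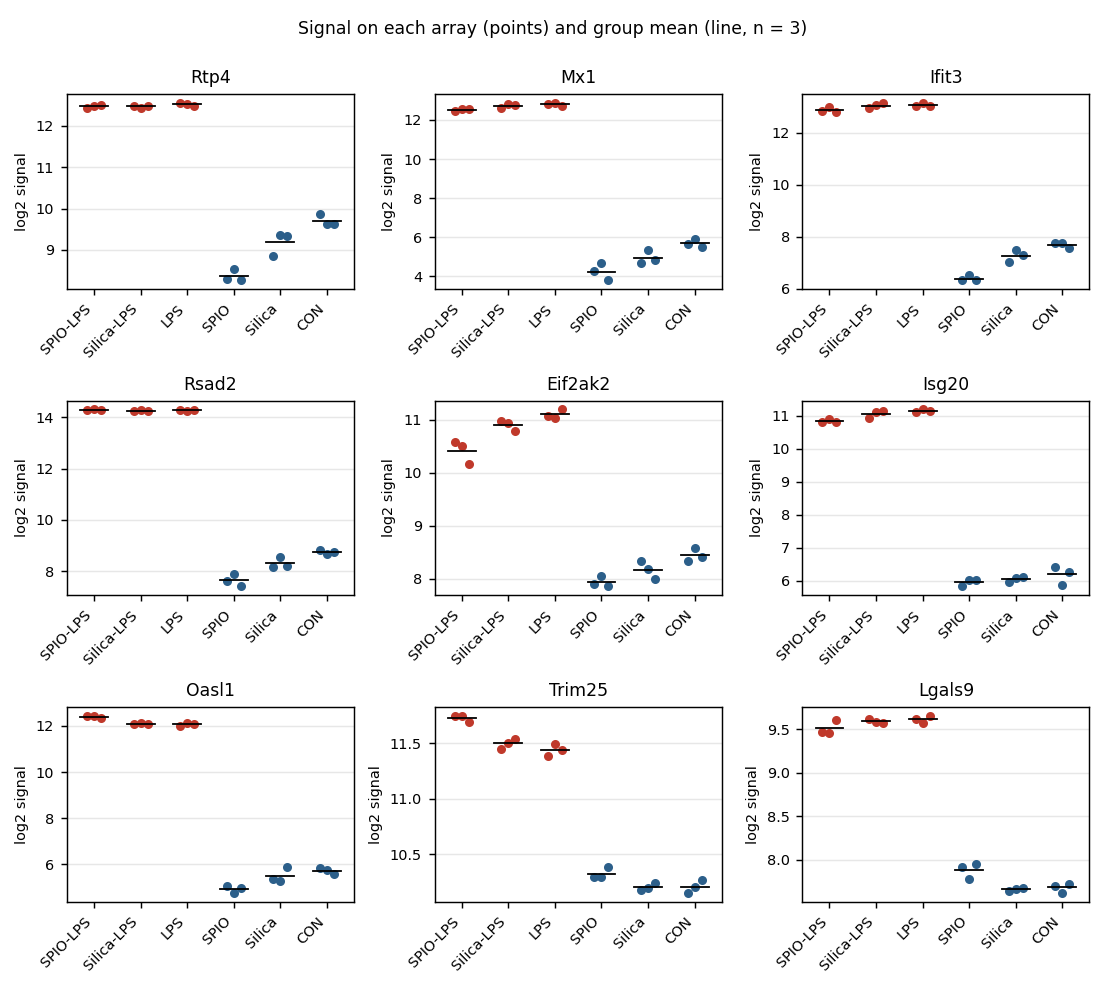
Log2 signal in each of the 18 arrays (points) for Rtp4, Mx1, Ifit3, Rsad2, Eif2ak2, Isg20, Oasl1, Trim25 and Lgals9, with groups along the horizontal axis (red with LPS, blue without) and group means as lines; vertical axes differ between panels and do not start at 0. The 3 SPIO points of Rtp4, Mx1, Ifit3 and Rsad2 lie below all CON points, while the SPIO-LPS points of Eif2ak2 and Isg20 lie below, and those of Trim25 above, all LPS points.

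Silica alone lowered 12 members. In Silica against CON these 12 of 38 were lower, none was higher and 26 were not called, where 1.57% of all genes were called lower and 2.45% higher. The median was -0.17, against -0.000876 over all genes, and 35 of 38 differences were negative. The mean over the members was 7.47 to 7.58 in Silica arrays, against 7.71 to 7.75 in CON arrays. All 12 called members had Silica arrays below all CON arrays.

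Ifih1 had the lowest adjusted p of these. It read 8.41, 8.48 and 8.38 in Silica cultures, against 8.74, 8.78 and 8.83 in CON cultures, a difference of -0.36 ± 0.046 (adjusted p = 0.000539). Mx1 read 4.69, 5.34 and 4.83 in Silica, against 5.64, 5.89 and 5.53 in CON (-0.73 ± 0.18, adjusted p = 0.0322). Oasl2 (-0.53 ± 0.14), Rtp4 (-0.52 ± 0.11), Oas2 (-0.45 ± 0.099), Ifit3 (-0.44 ± 0.099) and Rsad2 (-0.43 ± 0.11) were of similar size, and Ifitm3 (-0.33), Oas1a (-0.28), Trim30a (-0.28), Zbp1 (-0.26) and Lgals3bp (-0.18) were smaller. The count of falls moved with the arrays used: it was 5 without CON array 1, 4 without CON array 2, 9 without CON array 3 and 7 without any 1 of the Silica arrays. Ifih1, Ifitm3 and Oas1a were called in all 6 of these fits. Rtp4 lost its call without CON array 1, Trim30a without CON array 2 or Silica array 2, Oasl2 in all 6 omissions, Mx1, Rsad2 and Zbp1 in 5, Ifit3 and Lgals3bp in 4, and Oas2 in 3. The other probe sets gave -0.48 (called) and -0.10 for Rsad2, -0.32 for Rtp4 and -0.12 for Zbp1. With the spread estimated from the Silica and CON arrays alone, 2 members were called.

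After LPS no member was called between silica and particle-free macrophages. In Silica-LPS against LPS 0 of 38 were called by limma, where 1.89% of all genes were called higher and 0.976% lower. Before adjustment 2 had a limma p below 0.05, Oas2 (-0.22) and Lgals3bp (-0.11). The share of all genes at that unadjusted threshold is not given. The median was -0.02, 27 of 38 differences were negative, and they ran from -0.22 to 0.07. For 7 members (Eif2ak2, Lgals3bp, Oas2, Oasl2, Pml, Sp100 and Trim21) each Silica-LPS array was below each LPS array, with no share of all genes to set this against. For Mx1 the 95% interval was -0.46 to 0.30, and for Ifih1 -0.11 to 0.09, so differences within these intervals remain possible. The silica interaction was called for 0 members, with 0.00807% of all genes called in each direction. Before adjustment 11 members had a limma p below 0.05, again with no share of all genes at that threshold to set this against. Mx1 (0.65 ± 0.25), Rtp4 (0.47 ± 0.15), Oasl2 (0.44 ± 0.20) and Rsad2 (0.42 ± 0.15) were the largest of these. With a variance prior that follows signal and is robust to outlying genes, Ifih1 (0.35) was called.

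The 2 particles, at the same labelled concentration and time, were also set against each other. In SPIO against Silica 17 members were lower, 1 higher and 20 not called, where 11.6% of all genes were called lower and 14.6% higher. Ifi204 read 6.63, 6.84 and 6.16 in SPIO, against 7.29, 7.63 and 7.43 in Silica (-0.90 ± 0.24, adjusted p = 0.01), and the call was lost without SPIO array 3, at an adjusted p of 0.0586. Ifit3 differed by -0.87 ± 0.099 (adjusted p = 8.06e-06), Rtp4 by -0.82 ± 0.11 (adjusted p = 3.94e-05), Ifit2 by -0.74 and Ifit1 by -0.73. The second probe set of Rtp4 gave -0.13 here and was not called. Lgals9 was higher with iron oxide than with silica (0.22 ± 0.053, adjusted p = 0.0057). Of the members called lower with silica, Oas2 (0.01, 95% interval -0.20 to 0.22), Ifih1 (-0.01, 95% interval -0.11 to 0.09) and Trim30a (-0.06, 95% interval -0.18 to 0.06) were not called between the particles.

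Under LPS, 6 members were lower, 2 higher and 30 not called in SPIO-LPS against Silica-LPS, where 12.9% of all genes were called lower and 12.2% higher. The falls were those of Eif2ak2 (-0.48 ± 0.11, adjusted p = 0.00329, on 1 of its 2 probe sets), Ube2l6 (-0.36), Ifitm3 (-0.27), Samhd1 (-0.23), Lgals3bp (-0.20) and Bst2 (-0.18). Trim25 (0.23 ± 0.045, adjusted p = 0.00136) and Parp14 (0.18 ± 0.052, adjusted p = 0.0202) were higher. Without 1 array of these groups, Ube2l6 lost its call in 4 of 6 omissions, and Bst2 and Parp14 in 2 each (Silica-LPS array 2 for both, SPIO-LPS array 1 for Bst2 and 2 for Parp14). The particles differ in both core and size, which cannot be told apart here.

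The response element letters can be read against these changes. Of the 12 members with the letters in their window, 10 were lower in SPIO against CON, with a median of -0.48; of the 15 without, 6 were lower, with a median of -0.18. In SPIO-LPS against LPS it was 3 of 12 with the letters, with a median of -0.08, and 6 of 15 without, with a median of -0.15. For LPS against CON the medians were 2.82 with the letters and 2.98 without. Letters of the related gamma-activated site, TTCNNNGAA, which reads the same on both strands in its fixed bases, were in 9 of 27 members (33.3%) and 9.55% of genes with a window, and 4 members (Bst2, Eif2ak2, Ifitm3 and Oas1a) held both. These counts are descriptions of 27 genes and were not tested.

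Of the members, 4 pairs are adjacent among protein-coding genes. All 8 of these genes fell in SPIO against CON, where 24 of 38 members and 14.2% of all genes were called lower. Mx1 and Mx2, both on chromosome 16, were not counted as a pair because RefSeq lists them as pseudogenes. Of those, Mx1 fell and Mx2, at -0.36, was not called. Rsad2 and Cmpk2 are adjacent on chromosome 12 and differed by -1.10 and -0.69 in SPIO against CON. Ifit2 and Ifit3, adjacent on chromosome 19, differed by -1.21 and -1.30. Oasl2 and Oasl1 (-1.19 and -0.79) and Oas2 and Oas3 (-0.44 and -0.51) are adjacent pairs on chromosome 5. Under LPS the pairs did not share a direction throughout: in SPIO-LPS against LPS Oasl2 and Oasl1 differed by -0.11 and 0.33, and Rsad2 and Cmpk2 by 0.03 and -0.15, of which Oasl1 alone was called. Related genes of these families can share probe sequence, so their values may not be fully separate.

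The genes that make and relay interferon were counted as a list of 22, of which 18 were measured. LPS raised 13 and lowered 2, iron oxide alone raised 2 and lowered 9, iron oxide under LPS raised 4 and lowered 8, and silica alone raised 1 and lowered 3. Over all genes the shares raised and lowered were 22.2% and 36.1% with LPS, 19.6% and 14.2% with iron oxide alone, 18.2% and 14.6% with iron oxide under LPS, and 2.45% and 1.57% with silica alone. Irf7, the factor that amplifies interferon production and is itself interferon-stimulated, read 5.73, 5.73 and 5.83 in SPIO, against 7.05, 7.01 and 6.91 in CON. The arrays did not overlap, and the difference was -1.22 ± 0.078 (adjusted p = 9.65e-09). It remained lower under LPS (-0.36 ± 0.078, adjusted p = 0.00216).

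Ifnb1, which encodes interferon beta, was not called in SPIO against CON, at 3.98 ± 0.17 in SPIO and 3.86 ± 0.18 in CON (SD, n = 3 each). Its 95% interval there was -0.14 to 0.38. These signals lay near the low end of the scale, where a fall would be understated. Array medians without LPS were 6.35 to 6.43, and the 4 B cell markers averaged 3.89 to 4.84 in CON. LPS raised Ifnb1 by 2.16 ± 0.12, and with LPS it was lower in iron oxide macrophages. The arrays read 5.42, 5.63 and 5.26 in SPIO-LPS, against 5.99, 6.07 and 6.00 in LPS, a difference of -0.59 ± 0.12 (adjusted p = 0.00152). The 4 h harvest catches 1 point of its course, and secreted protein was not measured. Stat2 and Irf9, which encode factors acting at the response element, were lower in SPIO against CON (-0.34 and -0.51) and in SPIO-LPS against LPS (-0.43 and -0.24). The receptor chain Ifnar1 was lower in both (-0.16 and -0.26), and the kinases Jak1 and Tyk2 were called in neither. Tlr4, the LPS receptor, was higher in both (0.22 and 0.22). Socs1, the feedback inhibitor of JAK kinases, was lower under LPS (-0.74 ± 0.14, adjusted p = 0.000498) and not called without it (-0.23). Of the transcription factors Irf1 and Irf8, Irf1 was lower without LPS (-0.51) and higher with it (0.27), and Irf8 was higher without LPS (0.29) and lower with it (-0.96).

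Markers of other cell types and of RNA quality moved with iron oxide. All 8 macrophage markers were measured, and in CON Csf1r averaged 13.92 ± 0.011, Lyz2 14.45 ± 0.035 and Adgre1 12.22 ± 0.015. In SPIO against CON, 7 of 8 neutrophil markers were lower (array means of the list 8.55 to 8.65 in SPIO, 9.11 to 9.17 in CON), as were 4 of 9 fibroblast markers (8.12 to 8.17 in SPIO, 8.36 to 8.40 in CON) and 5 of 8 macrophage markers, with 2 higher (11.60 to 11.65 in SPIO, 11.84 to 11.88 in CON). Of the plasmacytoid dendritic cell markers, cells that make much interferon, 1 of 5 was lower (5.48 to 5.59 in SPIO, 5.64 to 5.77 in CON), as were 1 of 5 markers of conventional dendritic cells, 1 of 4 of B cells and 0 of 5 of T and NK cells. Over all genes, 14.2% were called lower and 19.6% higher in this comparison. In SPIO-LPS against LPS, 6 of 8 neutrophil markers (8.66 to 8.69 in SPIO-LPS, 9.10 to 9.14 in LPS) and 5 of 9 fibroblast markers (8.18 to 8.29 in SPIO-LPS, 8.52 to 8.59 in LPS) were lower. Of the macrophage markers 3 of 8 were lower and 2 higher, and of the plasmacytoid dendritic cell markers 2 of 5 were lower. Over all genes, 14.6% were called lower and 18.2% higher there. In Silica against CON 0 of 8 neutrophil markers were lower and 3 of 9 fibroblast markers higher, where 1.57% of all genes were called lower and 2.45% higher. The 3′ minus 5′ signal of Gapdh, a measure of RNA integrity, averaged 0.47 ± 0.026 in SPIO, 0.56 ± 0.02 in Silica and 0.69 ± 0.039 in CON (SD, n = 3 each), while that of Actb was 0.66 ± 0.015 in SPIO, 0.62 ± 0.018 in Silica and 0.59 ± 0.017 in CON. With LPS, Gapdh averaged 0.40 ± 0.064 in SPIO-LPS, 0.43 ± 0.046 in Silica-LPS and 0.52 ± 0.05 in LPS, and Actb 0.52 ± 0.014 in SPIO-LPS, 0.44 ± 0.026 in Silica-LPS and 0.38 ± 0.053 in LPS. Their part in the results above was not tested.

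Other probe sets give a second reading of 11 members. Of 16 such probe sets, 16 were called the same way as the one used in LPS against CON. For members called in SPIO against CON it was 7 of 12, in SPIO-LPS against LPS 5 of 9, and in the iron oxide interaction 2 of 5. In SPIO against Silica it was 4 of 8, in SPIO-LPS against Silica-LPS 4 of 6, and in Silica against CON 2 of 4. For called members, 0 were called in the opposite direction in any contrast. Some members not called had another probe set called higher in SPIO against CON: Tor3a (0.23), Trim21 (0.31) and Trim25 (0.12). That of Tor3a was also called higher in SPIO against Silica (0.33).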

How the data were processed

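RNA of 18 macrophage cultures was hybridised to 18 Affymetrix arrays. The deposited log2 signals, 1 per probe set, came from RMA per the submitters' processing notes; which program ran it, and how it was set, is not given in the sources used here. These values include neither counts nor detection calls. Precision is limited by the number of arrays, and changes near either end of the scale are understated. Array medians were 6.22 to 6.27 with LPS and 6.35 to 6.43 without, and correlations within groups were 0.997 to 0.999.

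Of 22626 probe sets other than controls, 20380 carried 1 gene symbol, 691 several and 1555 none in the annotation used. Symbols were updated through gene identifiers, and the probe set with the highest mean was kept for each of 12393 genes. Group means were compared with limma 3.58.1 in R 4.3.3 (lmFit, contrasts.fit, eBayes) over all 18 arrays, with p-values adjusted by Benjamini-Hochberg over all genes within each of 9 contrasts and calls at 0.05. Differences are given as log2 ± SE. Data were simulated for 12393 genes, of which 100 were changed by 0.5 and 100 by 1 on the log2 scale in SPIO. For SPIO against CON the procedure recovered 83% and 99% of these changes, with 10 false calls. For the SPIO by LPS interaction it recovered 58% and 95%, with 6 false calls. Far fewer genes were changed there than were called in the data, so these rates may not hold for the contrasts reported.

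The members and lists were chosen with earlier results of these data known. Every member could be named; values per array were given for those that led a contrast by size or were called in a direction that few took. Alternatives were a replicate block, the compared groups only, a trended robust prior, omission of the genes of lowest mean signal, averaging the probe sets of a gene, cyclic loess, and omission of each array. Figures were drawn with matplotlib 3.10.9 in Python 3.11.15.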

Additional observations from a re-analysis of the deposited data

Results flagged for a closer look

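The effect of iron oxide differed between macrophages with and without LPS, by the interaction test of limma, for 22 genes of the set and its pathway. The interaction was called higher for 15 of 38 members and lower for 1. Of the 18 measured pathway genes it was called higher for 4 and lower for 2. Over all genes, the shares were 3.73% higher and 5.07% lower. The interaction is the log2 difference in SPIO-LPS against LPS minus that in SPIO against CON. It was positive for Rtp4 (1.29), Mx1 (1.16), Rsad2 (1.13), Oasl1 (1.12), Ifit2 (1.10), Ifit3 (1.10), Oasl2 (1.08), Ifit1 (0.92), Irf7 (0.87), Irf1 (0.79), Ifitm3 (0.68), Parp14 (0.49), Ifna4 (0.38), Zbp1 (0.36), Ifih1 (0.35), Trim30a (0.34), Oas1a (0.33), Irf9 (0.27) and Lgals3bp (0.20). It was negative for Lgals9 (-0.30), Ifnb1 (-0.70) and Irf8 (-1.24). Without LPS, the Ifnb1 signals lay near the low end of the scale.

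Probe sets that match several genes stood outside the comparisons, and those that match an unmeasured or measured member rose with LPS. The probe set of Isg15, the ubiquitin-like modifier, which Gm9706 shares, differed by 5.53 in LPS against CON. It differed by -0.79 in SPIO against CON (adjusted p = 1.86e-06) and by -0.03 in SPIO-LPS against LPS. The LPS against CON difference was 3.59 for a probe set shared by Mndal, Ifi211, Ifi205 and Ifi204, 3.70 for one shared by Ifi211 and Ifi205, and 2.99 for one shared by Trim30d and Trim30a.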

How the results depend on the processing

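All 38 rises with LPS held under every alternative and omission, and counts in the other contrasts kept within 1.5 times except as follows. With the compared groups only, 2 members were lower in Silica against CON (12 as reported) and 0 were lower in the iron oxide interaction (1 as reported). With the trended robust prior, and likewise without the genes of lowest mean signal, 2 members were higher in SPIO against CON (1 as reported) and 3 in SPIO against Silica (1 as reported), where the mean of probe sets and cyclic loess each gave 2. The trended robust prior also called 1 member higher in the silica interaction (0 as reported). Irf3 in SPIO-LPS against LPS was 0.16 and turned to -0.042 with the mean of its probe sets; the causes of these shifts were not tested.

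Leaving out 1 array gave 4 to 9 members lower in Silica against CON, 20 to 24 lower and 1 to 2 higher in SPIO against CON, and 6 to 11 lower and 2 higher in SPIO-LPS against LPS. The iron oxide interaction ranged from 13 to 15 higher and 0 to 1 lower, SPIO against Silica from 13 to 16 lower and 1 to 2 higher, and SPIO-LPS against Silica-LPS from 4 to 6 lower and 1 to 2 higher.

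The deviations of same-numbered cultures from their group means correlated between -0.31 and 0.13, so the numbers were not taken as pairs. With the replicate number as a block, 38 members were higher in LPS against CON, 24 were lower and 1 higher in SPIO against CON, 10 lower and 2 higher in SPIO-LPS against LPS, 14 higher and 1 lower in the iron oxide interaction, and 10 lower in Silica against CON. The block gave 17 lower and 1 higher in SPIO against Silica and 6 lower and 2 higher in SPIO-LPS against Silica-LPS, and 0 in Silica-LPS against LPS and the silica interaction. Cyclic loess moved the median of all genes by at most 0.028. With 3 arrays a group the median SE of a member was 0.08, and 0.12 for interactions. Differences of that size, and larger ones too, could go uncalled. In Silica-LPS against LPS, Oas2 differed by -0.22 ± 0.099 and was not called.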
